A study of Mus musculus with 54 samples.

Results

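Most sorting nexins and VPS (vacuolar protein sorting) proteins help carry membrane proteins between endosomes, lysosomes, the Golgi apparatus and the cell surface. Here 57 genes were followed in mouse liver, all the protein-coding entries of the RNA-seq table whose symbol begins with Snx or Vps followed by a number, of 13815 genes in the table. They carried 56 symbols, since Snx29 was listed under 2 Ensembl IDs, and fell into 29 Snx and 28 Vps entries. The symbol alone decided membership, so a member need not act in sorting. The question put to them was how their RNA and the binding of TFE3 at them differed when hepatocytes lacked folliculin.

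Retromer, a trimer of VPS26, VPS29 and VPS35, pulls cargo back from endosomes before it reaches the lysosome, together with sorting nexins that bind phosphoinositides through their PX domain. CORVET and HOPS are tethers that share a core of VPS proteins and bring endosomes together or fuse them with lysosomes, ESCRT proteins bud vesicles into the endosome, and GARP receives endosomal carriers at the Golgi. Folliculin, the product of Flcn, acts through the Rag GTPases to let mTORC1 phosphorylate TFE3, which keeps this transcription factor of lysosomal genes in the cytoplasm.

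The study measured RNA in 15 liver libraries, 3 per group, and sequenced 39 chromatin immunoprecipitation (ChIP) and input libraries. Every RNA-seq mouse carried Flcn lox/lox alleles and received 1.5e+11 genome copies of an AAV8 virus with the hepatocyte promoter TBG. The chow LiFKO group was given Cre and normal chow, and the chow Control group was given GFP and normal chow. The AMLN DKO group was Flcn lox/lox; Tfe3 -/Y with Cre, the AMLN LiFKO group was Flcn lox/lox with Cre, and the AMLN Control group was Flcn lox/lox with GFP, all on AMLN diet, which is used to produce steatohepatitis. Diets lasted 17 to 18.5 weeks and mice were fasted for 4 to 6 h. The DKO mice lacked Tfe3 in every tissue and came from another cross, so line and genotype cannot be told apart, and there was no DKO group on chow. TFE3 ChIP used livers of freely fed LiFKO and Control mice on chow (4 libraries each, same dose of virus), or after 9 days of FPC diet (3 libraries per group). Anti-TFE3 ChIP of livers labelled Tfe3KO was also sequenced, with 2 libraries on chow and 1 on FPC diet. No values of these libraries were read here, so the peaks below were not checked against them. On FPC diet LiFKO and Control mice received 2.5e+11 genome copies of Cre or GFP virus. LiFKO+1c and Control+1c mice received 1.5e+11 of Cre or GFP virus and 1.0e+11 of a virus for HA-tagged nuclear SREBP-1c, an activator of fatty acid synthesis, under the liver promoter ApoE/AAT.

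Expression is given on the deposited log2 scale, whose length scaling is not given in the sources used here, so that levels of different genes are not compared. Differences are of group means on that scale with the moderated standard error (SE) of limma, and a call is an adjusted p under 0.05 (Benjamini-Hochberg, over all 13815 genes). Flcn was at 10.55, 10.14 and 10.53 in chow LiFKO livers, against 11.33, 11.55 and 11.44 in chow Control livers. It was at 9.12, 9.45 and 9.91 in AMLN DKO livers, 10.25, 10.56 and 10.43 in AMLN LiFKO livers and 10.98, 10.92 and 11.06 in AMLN Control livers. LiFKO livers differed from Control livers in Flcn by -1.03 on chow and -0.57 on AMLN diet (limma adjusted p = 0.000394 and 0.0257). DKO livers differed from AMLN LiFKO livers in Flcn by -0.92 (limma adjusted p = 0.00242), and these groups did not overlap. Tfe3 RNA was at 10.20, 9.88 and 9.89 in the livers labelled DKO and at 9.92, 10.02 and 10.07 in AMLN LiFKO livers, groups that overlapped, so the gene-level value does not check the Tfe3 deletion. The labels name liver tissue, and the 6 hepatocyte markers averaged 17.7 to 18.4 in every library. In bulk tissue fewer cells of a type and less RNA per cell cannot be told apart.

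Loss of Flcn on chow was accompanied by higher RNA of 13 of the 57 genes and lower RNA of 7. That is 35.1% of the members called, beside 25.7% of all genes (1723 higher, 12.5%, and 1822 lower, 13.2%). The risers were the retromer subunits Vps35, Vps29 and Vps26a, the sorting nexins Snx8, Snx12, Snx16 and Snx30, the CORVET and HOPS subunits Vps8, Vps18, Vps33a and Vps41, and the lipid transfer proteins Vps13b and Vps13c. The fallers were Snx7, Snx17, Snx24, Snx25, Snx33, Vps26b and Vps54. On AMLN diet 13 members rose and 3 fell in LiFKO livers, 28.1% of the members beside 19.7% of all genes (1392 higher, 10.1%, and 1330 lower, 9.63%). The median difference of the members was 0.07 on chow, beside -0.05 over all genes, and 0.11 on AMLN diet, beside -0.02 over all genes.

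The 2 diets used separate libraries. Of the members that rose, 11 were shared, which is 84.6% of the 13 risers on each diet. Over all genes 927 risers were shared, 53.8% of those on chow and 66.6% of those on AMLN diet. Of the members that fell, Snx7, Snx24 and Vps54 were shared, 3 of 7 on chow (42.9%) and 3 of 3 on AMLN diet, beside 39.6% and 54.2% over all genes, and no member was called in opposite directions. Groups did not overlap for 28 members on chow (41.9% of all genes) and for 26 on AMLN diet (35.4% of all genes).

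**Figure D1:**
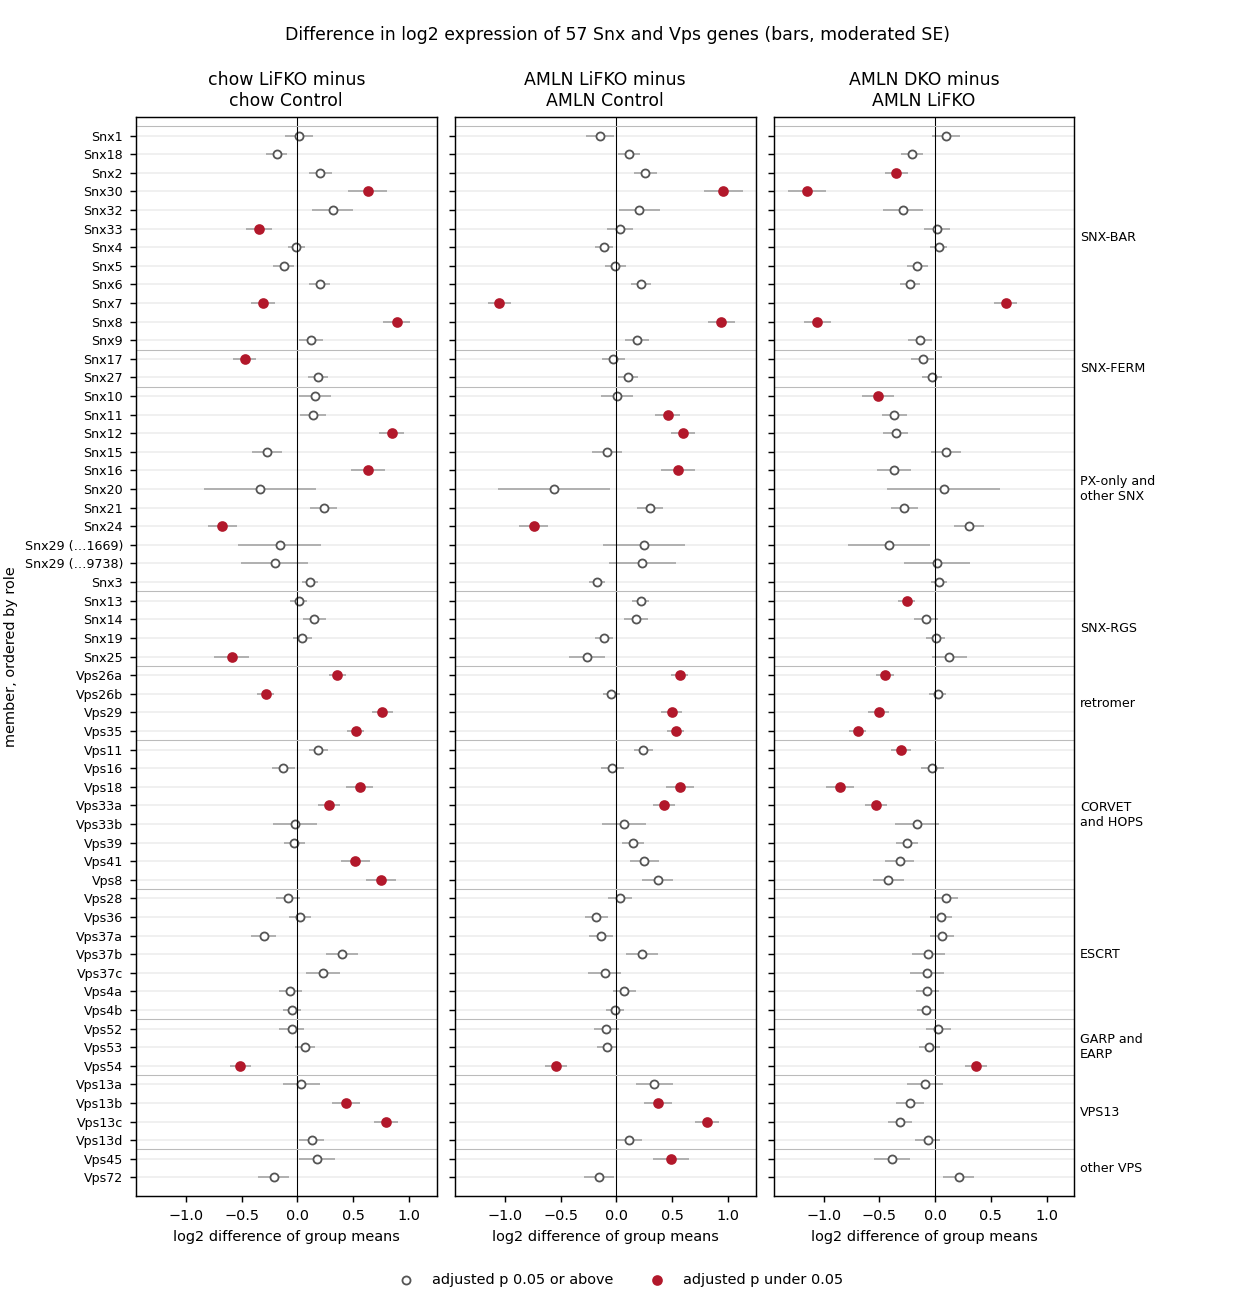
Differences of group means on the log2 scale (x axis) for each of the 57 Snx and Vps genes (y axis, ordered by role), for chow LiFKO minus chow Control, AMLN LiFKO minus AMLN Control and AMLN DKO minus AMLN LiFKO. Bars are the moderated SE and filled points passed an adjusted p of 0.05: 20, 16 and 13 genes. None of the 7 ESCRT genes has a filled point in any panel, and Vps35, Vps29 and Vps26a lie to the right in both LiFKO panels and to the left in the DKO panel.

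Retromer was raised in 3 of its 4 genes with Flcn loss on both diets, beside 12.5% of all genes called higher on chow and 10.1% on AMLN diet. Vps35 (chr8:87784296-87823412, mm9), the scaffold of the trimer, was at 13.06, 13.00 and 13.07 in chow LiFKO livers, against 12.42, 12.55 and 12.59 in chow Control livers. In AMLN-fed mice it was at 12.45, 12.47 and 12.60 in DKO livers, 13.22, 13.28 and 13.10 in LiFKO livers and 12.75, 12.64 and 12.61 in Control livers. Every LiFKO library thus lay above every Control and DKO library. The difference was 0.52 on chow (SE 0.08, adjusted p = 0.000164) and 0.53 on AMLN diet (SE 0.08, adjusted p = 0.000205), and DKO livers were lower than LiFKO livers by -0.69 (SE 0.08, adjusted p = 4.33e-05, limma).

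Vps29 (chr5:122804378-122814993), which caps the other end of VPS35 and recruits retromer regulators, was at 11.51, 11.71 and 11.75 in chow LiFKO livers, against 10.92, 10.86 and 10.91 in chow Control livers. It was at 11.17, 11.23 and 10.96 in AMLN DKO livers, 11.64, 11.52 and 11.73 in AMLN LiFKO livers and 11.12, 11.23 and 11.04 in AMLN Control livers. The LiFKO libraries again stood above all others, and the DKO libraries overlapped the AMLN Control libraries. The differences were 0.76 (SE 0.09) on chow, 0.50 (SE 0.09) on AMLN diet and -0.51 (SE 0.09) between DKO and LiFKO livers, with adjusted p of 4.92e-05, 0.00177 and 0.00307 by limma.

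The 2 paralogs of the arrestin-like subunit VPS26 moved apart. Vps26a (chr10:61917591-61949553) was at 12.06, 12.01 and 12.06 in chow LiFKO livers, against 11.68, 11.78 and 11.59 in chow Control livers. Vps26b (chr9:26812088-26837679) was at 10.80, 10.79 and 10.80 in chow LiFKO livers, against 11.04, 11.17 and 11.04 in chow Control livers. Each pair of groups was fully separated, in opposite directions: Vps26a rose by 0.36 (SE 0.08, adjusted p = 0.00358) and Vps26b fell by 0.29 (SE 0.08, adjusted p = 0.0134), a call that was lost without chow Control replicate 2 (adjusted p = 0.0658). On AMLN diet Vps26a was at 11.60, 11.83 and 11.70 in DKO livers, 12.15, 12.16 and 12.16 in LiFKO livers and 11.69, 11.56 and 11.52 in Control livers, a rise of 0.57 with Flcn loss (SE 0.08, adjusted p = 0.000163). Vps26b differed by -0.05 there (SE 0.08, adjusted p = 0.734) and the groups overlapped. The LiFKO effect on Vps26b was not called as different between diets (0.24, SE 0.11, adjusted p = 0.302).

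**Figure D2:**
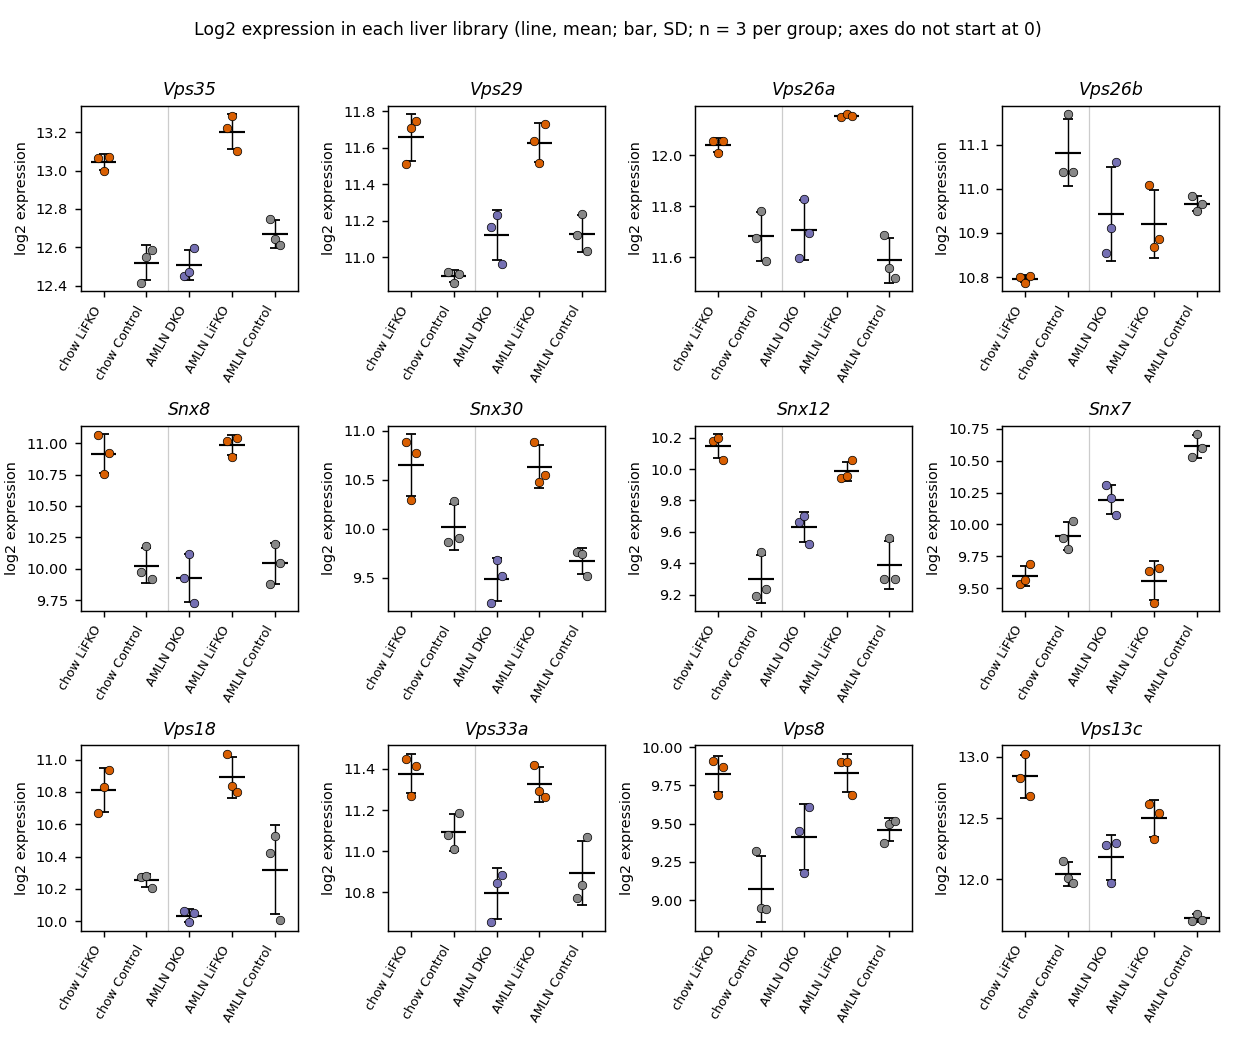
Log2 expression (y axis, not starting at 0) of 12 genes in each liver library, by group on the x axis (3 libraries per group; line, mean; bar, SD). For Vps35, Vps29, Vps26a and Snx8 the chow and AMLN LiFKO libraries stand above the Control and DKO libraries, and for Snx7 they stand below.

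Among the 12 SNX-BAR genes, whose proteins bend membrane with a BAR domain beside the PX domain, 2 rose and 2 fell on chow, and 2 rose and 1 fell on AMLN diet. The shares called were 33.3% on chow and 25% on AMLN diet, beside 25.7% and 19.7% of all genes. Snx8, an endosomal sorting nexin, was at 11.07, 10.75 and 10.92 in chow LiFKO livers, against 9.97, 10.18 and 9.92 in chow Control livers. It was at 9.93, 10.12 and 9.73 in AMLN DKO livers, 11.02, 10.89 and 11.04 in AMLN LiFKO livers and 9.88, 10.20 and 10.05 in AMLN Control livers. The DKO and Control libraries covered one range and the LiFKO libraries lay wholly above it. Flcn loss went with a difference of 0.89 on chow (SE 0.12, adjusted p = 0.00011) and 0.94 on AMLN diet (SE 0.12, adjusted p = 0.000103), and DKO livers differed from LiFKO livers by -1.06 (SE 0.12, adjusted p = 6.96e-05, limma).

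Snx30, which forms a complex with SNX4 in recycling, was at 9.25, 9.68 and 9.52 in AMLN DKO livers, 10.88, 10.47 and 10.55 in AMLN LiFKO livers and 9.76, 9.74 and 9.52 in AMLN Control livers. On chow it was at 10.89, 10.29 and 10.77 in LiFKO livers, against 9.87, 10.29 and 9.90 in Control livers. The lowest chow LiFKO and the highest chow Control library both read 10.29. The differences were 0.96 on AMLN diet (SE 0.17, adjusted p = 0.00128), 0.63 on chow (SE 0.17, adjusted p = 0.015) and -1.15 between DKO and LiFKO livers (SE 0.17, adjusted p = 0.000698). The chow call was lost without any one of 4 of the 6 libraries (chow Control replicates 1 and 3, chow LiFKO replicates 1 and 3), at an adjusted p of up to 0.0706.

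Snx7, another partner of SNX4, ran the other way. It was at 10.31, 10.20 and 10.08 in AMLN DKO livers, 9.63, 9.39 and 9.66 in AMLN LiFKO livers and 10.53, 10.71 and 10.60 in AMLN Control livers, so that DKO livers lay between the other groups with no overlap. On chow it was at 9.53, 9.57 and 9.69 in LiFKO livers, against 9.89, 9.81 and 10.02 in Control livers. The difference was -1.05 on AMLN diet (SE 0.10, adjusted p = 1.16e-05) and -0.31 on chow (SE 0.10, adjusted p = 0.0424). The change in the LiFKO effect, -0.74 (SE 0.15, adjusted p = 0.0304), was the one such call among the members (1.04% of all genes). It was kept in 4 of 12 fits that each left out 1 library, with an adjusted p of up to 0.0897. It was lost without chow LiFKO replicate 2 or 3, chow Control replicate 1 or 2, AMLN LiFKO replicate 1 or 2, or AMLN Control replicate 1 or 2. The chow call was kept in 2 of 6 such fits (lost without LiFKO replicate 1 or 2, or Control replicate 1 or 3, adjusted p up to 0.148). The third SNX-BAR gene of the SNX4 group, Snx4 itself, differed by -0.01 on chow (SE 0.08, adjusted p = 0.95) and -0.11 on AMLN diet (SE 0.08, adjusted p = 0.379).

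The SNX-BAR genes of the classical retromer coat, Snx1, Snx2, Snx5 and Snx6, and their relative Snx32 were not called with Flcn loss on either diet, with differences from -0.14 to 0.32. Snx2 was lower in DKO than in AMLN LiFKO livers (-0.35, SE 0.11, adjusted p = 0.0467), a call that was lost in 4 of 6 fits without 1 library (DKO replicate 1 or 3, or LiFKO replicate 1 or 2). Snx33, which binds dynamin and actin regulators, fell on chow (-0.35, SE 0.12, adjusted p = 0.0449), and that call was lost whichever library was left out.

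Of the 11 entries with a PX domain alone or another fold, 2 rose and 1 fell on chow, and 3 rose and 1 fell on AMLN diet. That is 27.3% called on chow, near the 25.7% of all genes, and 36.4% on AMLN diet, beside 19.7%. Snx12, a close relative of the retromer adaptor SNX3, was at 10.18, 10.20 and 10.06 in chow LiFKO livers, against 9.19, 9.47 and 9.24 in chow Control livers. It was at 9.66, 9.70 and 9.52 in AMLN DKO livers, 9.94, 9.96 and 10.05 in AMLN LiFKO livers and 9.30, 9.56 and 9.30 in AMLN Control livers. The LiFKO libraries were the highest on each diet, and the DKO libraries overlapped the AMLN Control libraries. The differences were 0.85 on chow (SE 0.11, adjusted p = 6.72e-05) and 0.60 on AMLN diet (SE 0.11, adjusted p = 0.00142), and -0.35 between DKO and LiFKO livers did not pass (SE 0.11, adjusted p = 0.0502). Snx3 differed by 0.11 on chow (SE 0.07, adjusted p = 0.261) and by -0.17 on AMLN diet (SE 0.07, adjusted p = 0.0981).

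Snx16 rose on both diets (0.63 and 0.55, SE 0.15 each, adjusted p = 0.00731 and 0.0191), the second call being lost without AMLN LiFKO replicate 1 or AMLN Control replicate 3 (adjusted p up to 0.0946). Snx11 rose on AMLN diet (0.46, SE 0.11, adjusted p = 0.0103) and stood at 0.14 on chow (SE 0.11, adjusted p = 0.408). Snx24 fell on both, with 8.15, 8.01 and 8.31 in chow LiFKO livers against 8.86, 8.72 and 8.92 in chow Control livers, and with 8.42, 8.26 and 8.49 in AMLN LiFKO livers against 9.21, 9.12 and 9.07 in AMLN Control livers. Those groups did not overlap, and the differences were -0.68 and -0.74 (SE 0.13 each, adjusted p = 0.00163 and 0.00109). The 2 Snx29 entries, neighbours on chromosome 16, were not called in any comparison. Snx20 had the largest SE of all members and was not called either.

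The 2 nexins with a FERM domain sort cargo by its tail. Snx17, which retrieves LDL receptor family members, was at 9.56, 9.52 and 9.31 in chow LiFKO livers, against 9.90, 10.06 and 9.84 in chow Control livers. All 3 LiFKO libraries lay below the Control libraries, a difference of -0.47 (SE 0.10, adjusted p = 0.00387). On AMLN diet it differed by -0.03 (SE 0.10, adjusted p = 0.887), and the interaction was 0.44 (SE 0.15, adjusted p = 0.158). Snx27, the retromer adaptor with a PDZ domain, was not called in any comparison. Of the 4 nexins with an RGS domain or its relatives, Snx25 fell on chow (-0.59, SE 0.16, adjusted p = 0.0134), a call that did not hold when replicate 3 of either group was left out, and Snx13, Snx14 and Snx19 were not called with Flcn loss.

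The 8 genes listed here under CORVET and HOPS, which include Vps33b, a relative of Vps33a, had 4 risers on chow and 2 on AMLN diet, with no fallers. That is 50% called on chow, beside 25.7% of all genes, and 25% on AMLN diet, beside 19.7%. Vps18, a subunit of the shared core, was at 10.67, 10.83 and 10.93 in chow LiFKO livers, against 10.27, 10.28 and 10.20 in chow Control livers. It was at 10.06, 9.99 and 10.05 in AMLN DKO livers, 11.04, 10.83 and 10.80 in AMLN LiFKO livers and 10.42, 10.53 and 10.01 in AMLN Control livers. LiFKO libraries were highest on both diets, and AMLN Control replicate 3 alone fell among the DKO libraries. Differences were 0.56 on chow (SE 0.12, adjusted p = 0.00363), 0.57 on AMLN diet (SE 0.12, adjusted p = 0.00403) and -0.85 between DKO and LiFKO livers (SE 0.12, adjusted p = 0.000457).

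Vps33a, the SM protein of the core, which guides SNARE pairing, was at 11.45, 11.27 and 11.41 in chow LiFKO livers, against 11.08, 11.01 and 11.19 in chow Control livers. It was at 10.65, 10.85 and 10.89 in AMLN DKO livers, 11.42, 11.29 and 11.26 in AMLN LiFKO livers and 10.78, 10.83 and 11.07 in AMLN Control livers. The LiFKO libraries were the highest on each diet, and DKO and AMLN Control libraries overlapped. It differed by 0.29 on chow (SE 0.10, adjusted p = 0.0437), 0.43 on AMLN diet (SE 0.10, adjusted p = 0.00604) and -0.53 between DKO and LiFKO livers (SE 0.10, adjusted p = 0.00298). The chow call was kept in 2 of 6 fits without 1 library (lost without LiFKO replicate 1 or 3, or Control replicate 1 or 2, adjusted p up to 0.147). The remaining core subunits Vps11 and Vps16 were not called with Flcn loss: Vps11 stood at 0.19 and 0.24 and Vps16 at -0.13 and -0.04 on chow and AMLN diet.

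Vps8, a subunit that CORVET has and HOPS lacks, was at 9.91, 9.69 and 9.87 in chow LiFKO livers, against 9.32, 8.95 and 8.94 in chow Control livers. These groups were separate, with a difference of 0.75 (SE 0.14, adjusted p = 0.000943). On AMLN diet its difference of 0.37 did not pass (SE 0.14, adjusted p = 0.071). Vps41, a subunit of HOPS, rose by 0.52 on chow (SE 0.13, adjusted p = 0.00949) and stood at 0.25 on AMLN diet (SE 0.13, adjusted p = 0.209), while Vps39, its counterpart in HOPS, and Vps33b were not called in any comparison.

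The VPS13 proteins bridge organelles and transfer lipid between them. Vps13c, which links late endosomes and lysosomes to the endoplasmic reticulum, was at 12.82, 13.03 and 12.68 in chow LiFKO livers, against 12.15, 12.01 and 11.97 in chow Control livers. It was at 12.28, 11.97 and 12.29 in AMLN DKO livers, 12.62, 12.33 and 12.54 in AMLN LiFKO livers and 11.66, 11.72 and 11.66 in AMLN Control livers. DKO libraries lay between LiFKO and Control with no overlap on either side. The LiFKO differences were 0.80 and 0.82 on chow and AMLN diet (SE 0.11 each, adjusted p = 0.00011 and 0.000138), whereas DKO livers differed from LiFKO livers by -0.32 (SE 0.11, adjusted p = 0.0816) and from Control livers by 0.50 (SE 0.11, adjusted p = 0.0567), neither past the threshold.

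Vps13b rose on chow (0.44, SE 0.12, adjusted p = 0.0175) and on AMLN diet (0.37, SE 0.12, adjusted p = 0.0464), where the groups overlapped; each call was kept in 2 of 6 fits without 1 library, being lost on each diet without LiFKO replicate 1 or 2, or Control replicate 2 or 3. Vps13a and Vps13d were not called with Flcn loss. Of the ESCRT genes none of 7 was called on either diet by limma, with 2 at an unadjusted p under 0.05 on chow and 0 on AMLN diet (36.8% and 32% of all genes). Their differences ran from -0.30 (Vps37a) to 0.40 (Vps37b) on chow. In GARP, Vps54 fell, at 11.03, 11.07 and 11.27 in chow LiFKO livers against 11.67, 11.52 and 11.72 in chow Control livers. Both diets gave separate groups, with differences of -0.51 and -0.54 (SE 0.10 each, adjusted p = 0.00129 and 0.0012), while Vps52 and Vps53, the other subunits measured, stood between -0.09 and 0.07. Vps45, an SM protein of early endosomes, rose on AMLN diet (0.49, SE 0.16, adjusted p = 0.0454), a call lost whichever library was left out.

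On AMLN diet 11 members were lower in DKO than in LiFKO livers and 2 were higher, 22.8% of the members beside 11% of all genes (5.05% higher and 5.97% lower). The 11 were Vps35, Vps29, Vps26a, Vps11, Vps18, Vps33a, Snx2, Snx8, Snx10, Snx13 and Snx30, and the 2 were Snx7 and Vps54. The comparison shares the AMLN LiFKO libraries with the LiFKO comparison above, so the 2 sets of values are side by side and not independent. Flcn RNA was itself lower in DKO than in AMLN LiFKO livers, as given above, and its part in the result was not tested. The calls of Vps11 (-0.31) and Snx13 (-0.26) were lost whichever library was left out, and those of Snx10 and Vps54 in 4 of 6 such fits (without replicate 2 or 3 of either group). Snx10, a sorting nexin with a PX domain that acts in endosomal and lysosomal vesicles, fell by 0.51 (SE 0.14, adjusted p = 0.0334) with groups that overlapped. Over the members the median was -0.11, beside 0.02 over all genes, and 23 had groups that did not overlap (28.7% of all genes). In this comparison 1 of 9 macrophage markers and 1 of 5 endothelial markers were lower in DKO livers, and 0 of 6 hepatocyte markers were called. The macrophage list was at 9.83 to 11.21 in DKO libraries and 10.22 to 10.96 in AMLN LiFKO libraries. The endothelial list was at 11.01 to 11.16 and 11.21 to 11.37. Hepatocyte means did not overlap either, at 18.13 to 18.21 in DKO and 17.91 to 18.05 in AMLN LiFKO libraries. The part of these markers in the result was not tested.

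Against AMLN Control livers, DKO livers had 0 members called in either direction by limma (0.651% of all genes, 62 higher and 28 lower). At an unadjusted p under 0.05 there were 6 members (10.5%), beside 13.5% of all genes. The retromer genes differed by -0.16 for Vps35, -0.01 for Vps29, 0.12 for Vps26a and -0.02 for Vps26b, with SE from 0.08 to 0.09. A p over the threshold does not show that the groups were alike. Vps13c and Snx7 had differences of 0.50 and -0.42 (limma adjusted p = 0.0567 and 0.09) with groups that did not overlap, as for 11 members in all (16.7% of all genes). Marker list means did not overlap for endothelial markers (11.01 to 11.16 in DKO and 10.84 to 10.94 in AMLN Control livers) and cholangiocyte markers (7.24 to 7.37 and 7.61 to 7.73). The hepatocyte means, 18.13 to 18.21 and 18.05 to 18.13, were separate by a margin under the rounding. The part of these markers in the result was not tested.

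AMLN diet in Control livers changed 7 members upward and 4 downward, 19.3% of the members beside 22.8% of all genes (11.2% higher and 11.6% lower), a share no higher than the background. Snx7 had the largest gain (0.71, SE 0.10, adjusted p = 0.000701), followed by Vps41, Snx19, Vps36, Snx6, Snx3 and Snx4. Vps13a (-0.65), Snx25 (-0.55), Vps13c (-0.36) and Snx13 (-0.24) were lower. The calls of Snx7, Snx19, Vps36 and Snx3 were kept whichever library was left out. Those of Vps13c and Snx13 were kept in 1 of 6 such fits, those of Vps41, Snx25 and Snx4 in 2, that of Vps13a in 4 (lost without chow Control replicate 1 or 2) and that of Snx6 in 5 (lost without AMLN Control replicate 1). In these libraries 5 of 9 macrophage markers and 5 of 6 stellate cell markers were higher on AMLN diet. So were 1 of 6 hepatocyte, 1 of 5 endothelial and 1 of 5 cholangiocyte markers, while 2 hepatocyte markers were lower. The macrophage list averaged 10.5 to 10.9 in AMLN Control libraries and 8.88 to 9.47 in chow Control libraries, and the stellate list 9.91 to 10.4 and 8.83 to 9.29. The hepatocyte list averaged 18.05 to 18.13 and 18.19 to 18.36, and the cholangiocyte list 7.61 to 7.73 and 6.85 to 7.07. The part of these markers in the members' changes was not tested. In LiFKO livers on AMLN diet against chow, Snx6 alone rose (0.36, SE 0.09, adjusted p = 0.0441) and 0 fell by limma (3.74% of all genes), with 10 members (17.5%) at an unadjusted p under 0.05, beside 21.1% of all genes; the Snx6 call was lost whichever library was left out.

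Markers of cell types also moved with Flcn loss on chow, where 2 of 9 macrophage and 2 of 5 endothelial markers were higher and 3 of 4 erythroid and 1 of 6 hepatocyte markers lower. The median difference was -0.09 over the macrophage list, -0.01 over the endothelial list, -1.20 over the erythroid list and -0.26 over the hepatocyte list. List means of the libraries were separate for macrophage markers (9.68 to 10.01 in chow LiFKO livers and 8.88 to 9.47 in chow Control livers) and for erythroid markers (12.27 to 12.86 and 13.17 to 14.19). The macrophage list included Gpnmb. With a median of -0.09 and 2 of 9 markers called, its separate means rest on a few markers and do not show a shift of the whole list. The hepatocyte means, 17.67 to 18.19 and 18.19 to 18.36, did not overlap, by a margin under the rounding, and the endothelial means overlapped.

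On AMLN diet 1 of 9 macrophage and 1 of 5 endothelial markers were higher in LiFKO livers, and 1 of 4 erythroid, 1 of 6 stellate and 1 of 5 cholangiocyte markers were lower. List means did not overlap for endothelial markers (11.21 to 11.37 in AMLN LiFKO livers and 10.84 to 10.94 in AMLN Control livers), stellate markers (9.51 to 9.67 and 9.91 to 10.36) and cholangiocyte markers (7.01 to 7.48 and 7.61 to 7.73). The part of these markers in the members' changes was not tested.

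Genes that work with these proteins but bear other symbols were listed by complex. Of 93 such genes, 20 rose and 7 fell with Flcn loss on chow, 29% beside 25.7% of all genes. On AMLN diet 17 rose and 4 fell, 22.6% beside 19.7%, and 0 rose and 17 fell in DKO against LiFKO livers, 18.3% beside 11%. By complex, 6 of the 15 partners of HOPS and CORVET rose and 2 fell on chow (53.3% called), with differences from -0.63 to 0.91, and 3 of 5 retromer partners rose (60%). Of 13 genes listed under the CCC and retriever complex 2 rose and 1 fell on chow (23.1%), with differences from -0.84 to 0.46. The share of all genes called there was 25.7%.

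Dnajc13, a co-chaperone that acts with sorting nexins on endosomes, was at 12.49, 12.26 and 12.42 in chow LiFKO livers, against 11.76, 11.86 and 11.76 in chow Control livers. It was at 11.70, 11.56 and 11.55 in AMLN DKO livers, 12.40, 12.41 and 12.32 in AMLN LiFKO livers and 11.69, 11.55 and 11.52 in AMLN Control livers. LiFKO libraries stood apart from all others, with differences of 0.60 on chow (adjusted p = 8.59e-05) and 0.79 on AMLN diet (adjusted p = 1.16e-05, limma). Rab7, the GTPase that recruits retromer and HOPS to late endosomes, rose by 0.42 and 0.45 (SE 0.06 each), and was lower in DKO than in LiFKO livers by -0.52 (SE 0.06).

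The Arl8 GTPases, which bind HOPS through VPS41, and Plekhm1, an adaptor for HOPS, also changed: Arl8a rose by 0.91 and 0.49, Arl8b by 0.25 and 0.48 and Plekhm1 by 0.72 and 0.77 on chow and AMLN diet, and in DKO against LiFKO livers they fell by 1.00, 0.58 and 0.86. Tgfbrap1, the CORVET counterpart of VPS39, rose by 0.50 and 0.35. E430025E21Rik, which encodes the WASH subunit strumpellin (Washc5), rose by 0.91 and 0.70, and Ccdc132, an older symbol of the EARP subunit Vps50, by 0.39 and 0.42 (SE 0.08 for the first and 0.10 for the second). Of 9 sorting receptors and cargo proteins, 1 rose with Flcn loss on chow (Igf2r, 0.30) and 1 fell on AMLN diet (Sorl1, -0.73). That is 11.1% called on each diet, beside 25.7% of all genes on chow and 19.7% on AMLN diet.

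TFE3 peaks lay at many of these genes. The headers of the FPC LiFKO, FPC Control and FPC Control+1c lists name 1 input and 2 TFE3 libraries in the ChIP pool and a TFE3 library as background, so whether names or libraries were exchanged cannot be told, and all values from these 3 lists carry that limit. The headers of the chow lists name no library as input or TFE3, in the pool or as background, so the same check could not be made on them. A peak was assigned to a gene when its centre was within 1 kb of the start in mm9 coordinates, which could be placed for the 38 members of known strand. In the chow lists 26 of the 38 had such a peak in LiFKO and 18 in Control livers (68.4% and 47.4%, beside 53.6% and 27.3% of 9578 protein-coding genes). On FPC diet they numbered 28 in LiFKO and 11 in Control livers (73.7% and 28.9%, beside 45.9% and 18.4%), and 29 in LiFKO+1c and 14 in Control+1c livers (76.3% and 36.8%, beside 58.5% and 18.2%). The LiFKO lists were longer than the Control lists, with 26445 peaks in chow LiFKO and 11385 in chow Control. On FPC diet they held 27751 in LiFKO, 9647 in Control, 35325 in LiFKO+1c and 10827 in Control+1c. The part of list size in the counts was not tested. Each list pools its libraries, so there is no spread between replicates and no test.

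A second window, within 1 kb of either end of the gene, needs no strand and takes in all 57 members. It was chosen after the data had been seen, and it also counts peaks at the far end of a gene. By it 39 of 57 members had a peak in chow LiFKO livers, 68.4% beside 52.8% of 12356 protein-coding genes, and 26 in chow Control livers, 45.6% beside 27.2%. On FPC diet there were 39 in LiFKO (68.4% beside 46.2%) and 15 in Control livers (26.3% beside 18.8%), and 42 in LiFKO+1c (73.7% beside 58.1%) and 20 in Control+1c livers (35.1% beside 18.8%). Of the member peaks near an end in chow LiFKO livers, 26 of 45 overlapped a chow Control peak, and 26 of 28 of the chow Control peaks overlapped a LiFKO peak. On FPC diet these were 16 of 43 and 16 of 17, and with 1c 18 of 51 and 18 of 22.

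**Figure D3:**
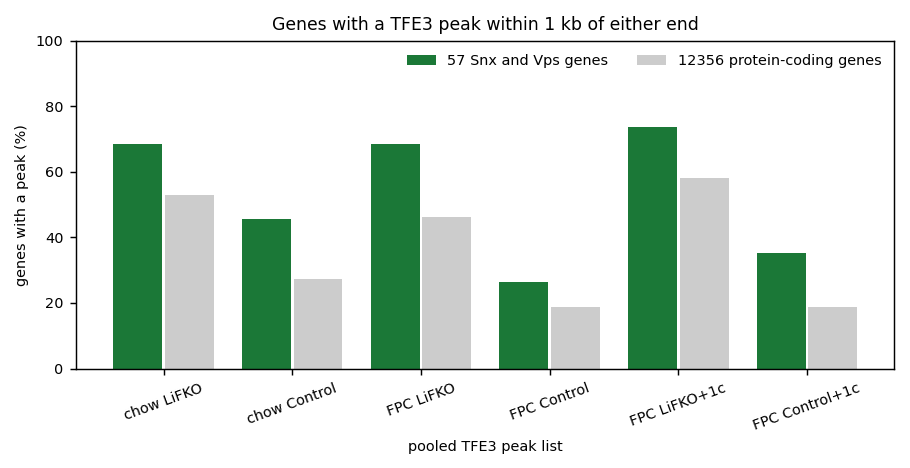
Share of the 57 Snx and Vps genes (green) and of 12356 protein-coding genes (grey) with a TFE3 peak within 1 kb of either end of the gene (y axis, percent; the window chosen after the data had been seen), in each of the 6 pooled TFE3 lists (x axis). The green bar is the higher in every list, from 26.3% beside 18.8% in FPC Control to 73.7% beside 58.1% in FPC LiFKO+1c.

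By the start window 6 of the 38 members had a peak in all 6 lists, 15.8% beside 8.23% of coding genes: Snx3, Snx5, Snx8, Snx13, Vps4b and Vps18. With a peak in at least 1 LiFKO list and no Control list there were 9 (23.7% beside 33.3%), among them Snx1, Snx6, Snx7 and Vps45, and 7 had none in any list (18.4% beside 28.7%). By the either-end window Snx32, Vps11 and Vps35 joined those with a peak in all 6, giving 9 of 57 (15.8% beside 8.47%). It gave 16 in 1 or more LiFKO lists and no Control list (28.1% beside 32.3%), Vps13b and Vps13c among them, and 9 with none (15.8% beside 29.6%): Snx9, Snx11, Snx19, both Snx29 entries, Vps4a, Vps16, Vps36 and Vps54. The peak at Snx3 (chr10:42221783-42221949) had a score of 209.8 in FPC LiFKO livers, the first rank of 27751 peaks, and 66.0 in FPC Control livers, rank 12 of 9647. With 1c it had 218.4 in LiFKO+1c livers, rank 2, and 56.9 in Control+1c livers, rank 15. Its centre lay 30 bases inside the gene's start in FPC LiFKO livers and 15 in FPC Control livers. Snx3 RNA was not called with Flcn loss, as given above. Scores are the authors' and were ranked within a list only.

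**Figure D4:**
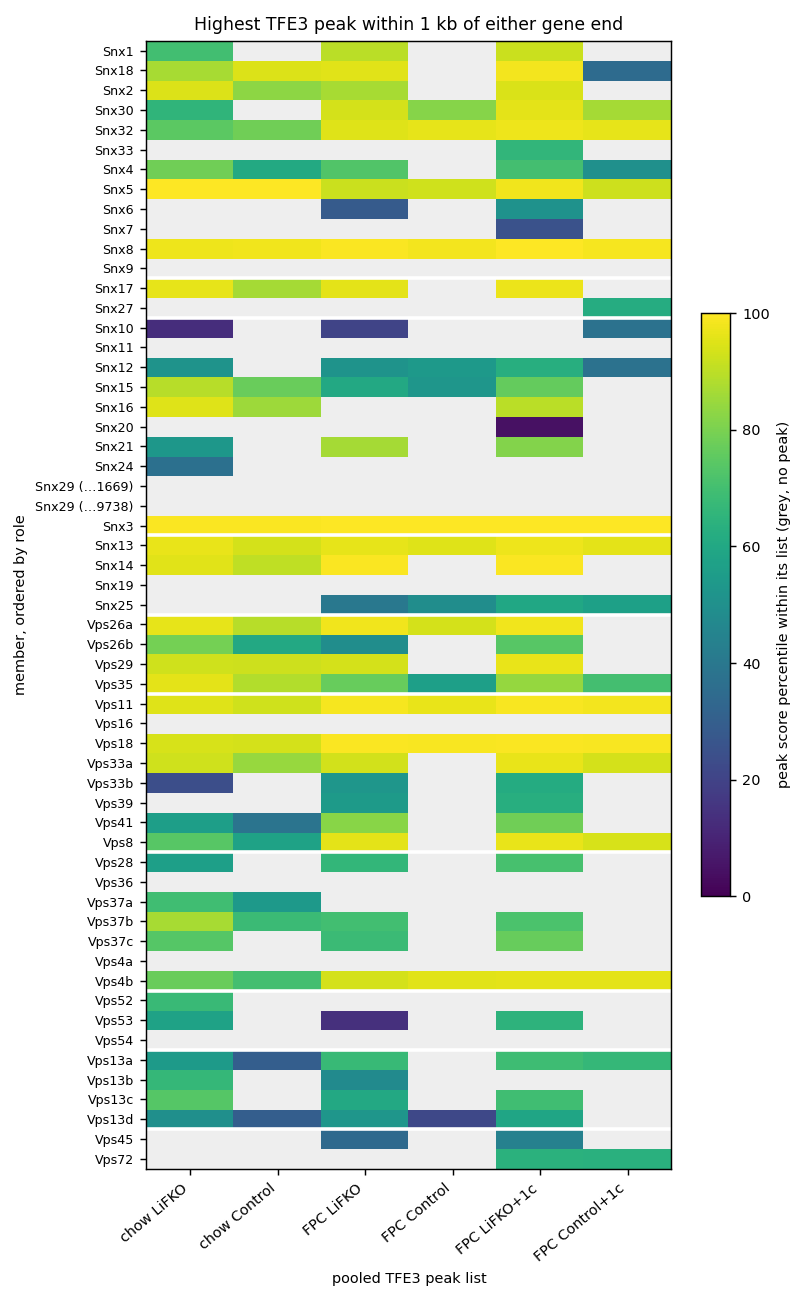
Highest TFE3 peak within 1 kb of either end of each of the 57 Snx and Vps genes (y axis, ordered by role) in the 6 pooled TFE3 lists (x axis). Color gives the peak's score percentile within its list and grey marks no peak. Snx3, Snx8 and Vps18 score high in all 6 lists, with chow LiFKO percentiles of 99.4, 97.4 and 93.9, and Vps16, Vps36 and Vps54 are grey throughout.

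Peaks were set beside the RNA calls. By the start window all 9 members of known strand that rose on chow had a chow LiFKO peak, beside 788 of the 1247 coding genes that rose (63.2%). Of the 6 that fell 2 had one (723 of 1342 coding genes, 53.9%), and of the 23 that were not called 15 had one (3622 of 6989, 51.8%). In the chow Control list 7 of the 9 risers had a peak (467 of 1247, 37.4%), Snx12 and Snx30 being without. On AMLN diet 7 of 9 risers had a chow LiFKO peak (77.8%, beside 649 of 984 coding genes, 66.0%), and Snx11 and Vps45 had none. Members not called on AMLN diet had one nearly as often, 19 of 27 (70.4%, beside 3960 of 7578 coding genes, 52.3%). Of the 2 that fell there 0 had one (524 of 1016, 51.6%). The either-end window, chosen after the data had been seen, was also counted. On chow it gave 13 of 13 risers (62.2% of coding genes that rose), 3 of 7 fallers (54.9%) and 23 of 37 not called (50.7%). On AMLN diet it gave 11 of 13 risers (64.6%), 1 of 3 fallers (52.8%) and 27 of 41 not called (51.2%). A peak at an end can belong to a neighbor: Orc6 has an end within 1 kb of the Vps35 peak, Rad9b of the Vps29 peak, Ncapd3 of the Vps26b peak and Eif2b4 of the Snx17 peak. No other listed gene had an end within 1 kb of the end peaks of Snx3, Snx8, Snx30, Vps18, Vps33a or Vps13c in the chow LiFKO list.

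The highest member scores in the chow lists were at Snx5, 106.2 in LiFKO livers and 69.2 in Control livers, ranks 38 and 32, with the end of another listed gene, 8430406I07Rik, within 1 kb. At Snx8 the start peak scored 57.2 in chow LiFKO livers and 44.6 in chow Control livers, the 97.4 and 97.9 percentiles. At Vps18 it scored 45.5 and 33.5, the 93.9 and 93.6 percentiles. At Vps35 the peak (chr8:87823478-87823664 in both lists) scored 51.1 in LiFKO livers and 28.1 in Control livers, the 96.0 and 88.3 percentiles. At Vps13c (strand not known here) a peak 110 bases inside the nearer end of the gene was listed in chow LiFKO livers with a score of 26.8 and not in chow Control livers, and one at 2615 and 2607 bases from that end was in both lists, with scores of 41.0 and 23.2.

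Promoter windows of 300 bases (250 before and 50 after the start) were matched for the 38 members from RefSeq (GRCm38.p6), 47 windows in all. The E-box CACGTG, the core that TFE3 and its relatives bind, was in 7 of 47 windows (14.9%), beside 2349 of 32851 windows of all genes (7.15%), both strands being searched. The longer palindrome known as CLEAR in promoters of lysosomal genes, here an E-box with GT before it and AC after it, was in 4 windows (8.51%), beside 107 of all windows (0.326%). The 4 belonged to Vps26a (2 windows), Vps33a and Vps16. The M-box TCATGTG was in 1 window, that of Vps41 (2.13% beside 3.77%).

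Printed here are the windows of the 3 called members with an E-box and a start peak, Snx8, Vps26a and Vps33a, and for contrast those of Vps16 and Snx5, chosen after their values had been seen: Vps16, which has the palindrome but no peak at an end in any list, and Snx5, which has a peak in all 6 lists but was not called with Flcn loss. Each reads 5′ to 3′ on the gene's strand, and capitals mark CACGTG. On GRCm38.p6 they are at chr5:140389259-140389558 (minus strand) for Snx8, chr10:62486756-62487055 (minus) for Vps26a, chr5:123572966-123573265 (minus) for Vps33a, chr2:130424070-130424369 (plus) for Vps16 and chr2:144270523-144270822 (minus) for Snx5.
Snx8 promoter: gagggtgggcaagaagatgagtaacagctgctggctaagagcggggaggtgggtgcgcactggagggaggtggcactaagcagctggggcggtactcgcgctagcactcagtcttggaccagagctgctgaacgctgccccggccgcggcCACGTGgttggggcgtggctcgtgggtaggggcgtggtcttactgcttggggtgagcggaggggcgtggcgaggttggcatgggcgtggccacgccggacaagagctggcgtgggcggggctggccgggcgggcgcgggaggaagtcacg
Vps26a promoter: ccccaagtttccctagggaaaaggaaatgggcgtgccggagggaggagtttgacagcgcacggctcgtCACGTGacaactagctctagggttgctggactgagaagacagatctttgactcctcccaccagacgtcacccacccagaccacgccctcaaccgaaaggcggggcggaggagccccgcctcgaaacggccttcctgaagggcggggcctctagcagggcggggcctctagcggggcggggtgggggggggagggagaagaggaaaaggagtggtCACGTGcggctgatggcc
Vps33a promoter: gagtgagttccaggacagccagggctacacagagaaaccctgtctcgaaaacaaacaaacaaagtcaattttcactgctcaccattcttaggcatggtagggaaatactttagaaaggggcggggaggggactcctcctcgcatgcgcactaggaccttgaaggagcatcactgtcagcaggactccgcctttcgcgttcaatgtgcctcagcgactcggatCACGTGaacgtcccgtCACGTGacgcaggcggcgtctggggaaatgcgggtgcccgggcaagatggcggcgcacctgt
Vps16 promoter: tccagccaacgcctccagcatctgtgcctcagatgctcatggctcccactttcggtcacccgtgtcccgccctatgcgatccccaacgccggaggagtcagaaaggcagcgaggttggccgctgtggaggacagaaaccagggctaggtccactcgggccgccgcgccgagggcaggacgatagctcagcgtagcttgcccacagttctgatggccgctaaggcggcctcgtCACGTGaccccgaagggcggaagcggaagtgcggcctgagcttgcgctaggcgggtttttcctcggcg
Snx5 promoter: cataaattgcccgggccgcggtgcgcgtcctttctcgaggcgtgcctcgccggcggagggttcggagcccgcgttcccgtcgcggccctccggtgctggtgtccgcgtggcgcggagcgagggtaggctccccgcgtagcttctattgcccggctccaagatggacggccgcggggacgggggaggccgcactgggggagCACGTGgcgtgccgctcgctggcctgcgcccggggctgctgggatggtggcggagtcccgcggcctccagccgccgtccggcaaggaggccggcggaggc

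The E-box began 100 bases before the start at Snx8, 182 before and 33 after it at Vps26a, 28 and 12 before it at Vps33a, 18 before it at Vps16 and 50 before it at Snx5. Vps16 RNA was at 10.45, 10.26 and 10.29 in chow LiFKO livers, against 10.53, 10.54 and 10.31 in chow Control livers, groups that overlapped. Snx5 RNA was at 11.43, 11.64 and 11.50 in chow LiFKO livers, against 11.60, 11.67 and 11.67 in chow Control livers, which also overlapped. A match of letters is a description of the window and not a bound site.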

How the data were processed

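The authors deposited RNA-seq as log2 values (13815 genes, 15 libraries). Tools, per the submitters' processing notes, were bcl2fastq 2.17, Trimmomatic 0.32, STAR 2.6.0c, SAMtools, featureCounts and limma, with build mm9. Quartiles matched across libraries (median 9.79 to 9.80) and the maximum was 21.47 in each, so the values had been quantile normalized; which length scaling was used is not given in the sources used here, and depth is unknown. Nothing says that replicates came from separate animals, so p-values measure the spread between these libraries only.

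The deposited peak lists hold HOMER peak scores of pooled libraries, per the file headers. Per the submitters' processing notes, ChIP reads went through Trimmomatic (0.32 and 0.36), Bowtie2 (2.2.6 and 2.2.8), SAMtools (0.1.19 and 1.7), bedtools and HOMER (4.4 and 4.11). In the deposited differential list the authors give each peak's log2 fold and p-value after adjustment. The 6 tag count columns of that table bear library numbers that the labels do not hold, and were not used.

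The model was fitted with R 4.3.3 and limma 3.58.1, with 1 mean per group over 15 libraries (10 residual degrees of freedom), eBayes with trend, two-sided, Benjamini-Hochberg within each of 7 comparisons over all genes, called at an adjusted p under 0.05. It was tested on simulated data. Peaks were read with Python 3.11.15, numpy 2.4.6 and pandas 2.3.3, plots drawn with matplotlib 3.10.9. Gene ends come from the RNA-seq table, and strand and promoter windows from RefSeq GRCm38.p6, matched by Entrez ID. Percent values are shares of genes, taken from the deposited tables. Peaks overlapped when they shared at least 1 base.

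The members, the lists of partner genes and of cell type markers and the roles were chosen with earlier results of these data known. Any member could be named. Values in every library were set for up to 10 called members per comparison with the smallest p, and were given also, after values were seen, for Vps26b, Snx30, Snx7, Snx17 and Vps33a on chow, Vps18 and Vps33a on AMLN diet, and Vps16 and Snx5. Partners named were among the 3 with the smallest p of a list and comparison, and peaks among the 3 highest scores of members or at members the RNA results name. Windows printed were those of called members with an E-box and a peak at the start, with Vps16 and Snx5 added. Alternatives were a replicate block, eBayes without trend, robust eBayes, a low-value filter, only the compared groups, median centring, each library left out, and other peak windows.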

Additional observations from a re-analysis of the deposited data

Results flagged for a closer look

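Snx7 differed more between LiFKO and Control livers on AMLN diet than on chow. The difference of the LiFKO effects was -0.74 (limma, SE 0.15, adjusted p = 0.0304), and Snx7 was the member for which this test passed. The call was kept in 4 of 12 fits that each left out 1 library (limma adjusted p up to 0.0897). Means were alike in LiFKO livers, 9.60 on chow and 9.56 on AMLN diet. In Control livers they were 9.91 on chow and 10.61 on AMLN diet. Every LiFKO library lay below every Control library on each diet (3 of 3 and 3 of 3).

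The anti-HA lists, which the comparisons above do not use, held 7 peaks at members. In LiFKO+1c livers Snx21 had a peak with a score of 4.76, and Vps13b had 2 with scores of 6.86 and 4.54. In Control+1c livers Vps39 had one with 12.60, Vps13c with 7.49, Vps72 with 5.08 and Vps13d with 4.71. The header of the LiFKO+1c list names 1 TFE3 library in the anti-HA pool, so whether its peaks are those of the anti-HA libraries alone cannot be told. Per the file headers both lists were called against an input and against another anti-HA library, and no score for these is given. Only the Vps72 peak lay within 1 kb of an end of its gene, beside 2% of coding genes with such a peak in that list.

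The authors' deposited table of TFE3 peaks that differed between LiFKO+1c and LiFKO livers held 96 peaks, of which 1 was at a member, in an intron of Vps13c (chr9:67717941-67718105, mm9), with a log2 fold change of 2.07 and an adjusted p of 0.00626 as the authors computed it. The headers of that table list an input library among the LiFKO ChIP libraries.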

How the results depend on the processing

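Of the 62 calls of members over the 7 comparisons, 38 held in every fit that left out 1 library and 49 under every other alternative (replicate block, eBayes without trend, robust eBayes, low-value filter, only the compared groups, median centring); 38 held throughout and 0 reversed. Leaving out 1 library gave 15 to 17 called members for LiFKO on chow, 13 to 16 on AMLN diet, 8 to 11 for DKO against LiFKO, 0 to 1 for DKO against Control, 6 to 10 for AMLN against chow Control, 0 to 0 for AMLN against chow LiFKO and 0 to 1 for the difference of the LiFKO effect. With only the compared groups, DKO against LiFKO had 8 called members and AMLN against chow LiFKO 0. AMLN against chow LiFKO had 0 with the replicate block and 2 with the low-value filter, which left 53 members. No pairing of the libraries by number was visible, though this check would not show a weak one. Residual correlations of 30 same-number pairs were -0.185 to 0.237 beside -0.238 to 0.21 for other pairs. In 6 of 15 libraries the best match bore the same number. Counting peaks from 5 kb before the start to the end of the gene gave 19 of 38 members in FPC Control, beside 37.3% of all genes, and 24 of 38 in FPC Control+1c, beside 38.4%; over all genes too these shares were above those within 1 kb of the start (18.4% and 18.2%). The authors' own nearest-gene annotation was not run as an alternative, since the TFE3 lists give none. The 1 kb window around either end was chosen after seeing the data. The cause of these changes was not tested. With 3 libraries per group and unknown depth, small differences can have been missed, and no limit of detection was computed.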
